A study of Homo sapiens with 8 samples.

Results

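Promoter windows with a strong H3K9me3 signal were examined in SiHa, an established line from a cervical squamous cell carcinoma, outside the zinc finger and olfactory receptor families that are the best known carriers of this mark. Of 38157 windows in all and 36493 on chromosomes 1 to 22, 734 were selected. A window was selected when its share of all H3K9me3 reads was at least 3.5 times its share of all input reads, with at least 50 H3K9me3 and 20 input reads over the libraries summed. Windows whose name starts with ZNF, ZFP, ZSCAN, ZKSCAN or OR and a digit, and those of SNHG14, had been left out, and 148 of these reached the same ratio. Because the ratio of H3K9me3 over input chose the windows, it is given below as a description without a test. The 734 windows were 4.72% of the 15544 that met every criterion except the ratio, and they carried 646 names at 700 places once overlapping windows were merged.

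SiHa cells had been seeded in a transwell plate, in which cells can cross a porous membrane, and the cells on either side were scraped off after 10 h. The 4 groups were input of non-migrated cells, H3K9me3 of non-migrated cells, input of migrated cells and H3K9me3 of migrated cells, where input is sonicated chromatin without antibody. Each group held 2 libraries, from paired sets 1 and 2, which differed in library kit, so each set gave 1 H3K9me3 library and 1 input library per fraction. All groups share the same untreated line and medium, no gene was targeted, and the line's identity is taken from the labels because promoter reads hold no transcripts to check it. Non-migrated cells are those that had not crossed by that time, so this fraction can hold cells that would have crossed later. A library is a bulk of cells, and a mark on more cells cannot be told apart from more mark per cell.

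H3K9me3 is the trimethylated form of lysine 9 of histone H3. SUV39H1, SUV39H2 and SETDB1 write it, HP1 proteins bind it, and it is the classical mark of condensed chromatin at centromeres, telomeres and repeats. At genes it is best known from silenced families that sit in clusters, from imprinted loci, where a single parental allele is silenced, and from genes of other lineages.

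The windows held 88028 to 684949 reads per library in set 1 and 984835 to 1729061 in set 2, and set 2 supplied 89.4% of all H3K9me3 reads and 76.1% of all input reads. A selected window had a median of 11 and 7 H3K9me3 reads in the non-migrated and migrated libraries of set 1, against 96.5 and 106 in set 2. The values below therefore lean on set 2. Reads are listed throughout in the order non-migrated set 1, migrated set 1, non-migrated set 2 and migrated set 2. Positions of windows are in hg19, and a window carries the name of a gene that overlaps it, so it need not be that gene's own start.

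The promoters of 4 selected genes are shown first because they differ widely in base composition. They come from selected windows of high ratio whose gene has a single window, on its own strand, and the same symbol in RefSeq. The sequences run from 250 bases before to 50 bases after the RefSeq start in GRCh38.p14, 5′ to 3′ on the gene's strand, and capitals mark CG, the dinucleotide that DNA methylation acts on in mammals. Their place inside the hg19 windows was not checked.
MAGEL2 (GRCh38.p14 chr15:23647818-23648117, minus strand): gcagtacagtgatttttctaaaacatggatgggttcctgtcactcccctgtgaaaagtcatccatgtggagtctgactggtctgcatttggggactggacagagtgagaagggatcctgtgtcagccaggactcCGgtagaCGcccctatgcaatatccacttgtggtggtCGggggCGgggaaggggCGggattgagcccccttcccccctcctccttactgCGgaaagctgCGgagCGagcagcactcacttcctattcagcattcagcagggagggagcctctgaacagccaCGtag
USP29 (GRCh38.p14 chr19:57118837-57119136, plus strand): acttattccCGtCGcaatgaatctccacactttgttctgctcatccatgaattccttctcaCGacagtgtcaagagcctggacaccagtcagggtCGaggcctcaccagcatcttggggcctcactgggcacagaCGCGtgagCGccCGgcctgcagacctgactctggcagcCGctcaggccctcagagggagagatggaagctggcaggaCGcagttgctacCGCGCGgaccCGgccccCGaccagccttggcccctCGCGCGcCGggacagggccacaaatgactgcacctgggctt
GALR1 (GRCh38.p14 chr18:77249598-77249897, plus strand): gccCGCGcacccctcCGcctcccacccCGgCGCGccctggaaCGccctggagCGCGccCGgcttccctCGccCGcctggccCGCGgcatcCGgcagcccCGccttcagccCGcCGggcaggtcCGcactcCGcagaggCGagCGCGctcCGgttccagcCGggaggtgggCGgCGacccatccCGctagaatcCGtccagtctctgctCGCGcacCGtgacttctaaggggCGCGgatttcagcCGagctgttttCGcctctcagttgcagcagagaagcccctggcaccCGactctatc
C19orf18 (GRCh38.p14 chr19:57974485-57974784, minus strand): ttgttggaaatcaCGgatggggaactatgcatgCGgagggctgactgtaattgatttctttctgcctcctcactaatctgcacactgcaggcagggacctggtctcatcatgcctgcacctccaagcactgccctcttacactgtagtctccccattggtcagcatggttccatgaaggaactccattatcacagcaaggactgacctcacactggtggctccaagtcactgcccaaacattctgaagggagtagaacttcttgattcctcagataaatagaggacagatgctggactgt

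These 300 bases hold 9 CG sites for MAGEL2, 19 for USP29, 37 for GALR1 and 2 for C19orf18. MAGEL2 encodes a ubiquitin ligase cofactor of the imprinted Prader-Willi region, USP29 a deubiquitinase of the imprinted PEG3 region, and GALR1 a receptor for the neuropeptide galanin. The observed over expected ratio of CG was 0.376, 0.645, 0.967 and 0.109 in that order. The genes were shown because their base composition differs, so the spread of this ratio among them follows from the choice. Over the 102 selected windows with such a promoter, the median of this ratio was 0.705 and 64 of them, or 62.7%, reached 0.6. The share was 48.8% among 2455 other windows with enough reads, 61.7% among the 760 of these whose H3K9me3 share was below their input share, and 48.9% among all 35116 RefSeq promoters. The share in selected windows was thus close to that in windows with enough reads whose H3K9me3 share was below their input share. Such windows had also met the minimum of H3K9me3 reads, which at so low a ratio takes many input reads. Windows with fewer H3K9me3 reads were not in this comparison, so it does not describe promoters with little H3K9me3.

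The ratio of shares ran from 3.5 to 8.98 over the selected windows, with a median of 4.14 against 1.47 over all 15544 windows with enough reads. The median selected window held 223.5 H3K9me3 reads and 101 input reads, and the median of the larger set 113 input reads. Just inside the threshold lay HS3ST3A1 (230 H3K9me3 and 124 input reads), AVPR1A (243 and 131) and PLA2G4C (245 and 132), all at 3.5. Just outside lay windows named U6 (456 and 246), CTAGE1 (215 and 116) and AC107057.2 (139 and 75), which also round to 3.5. No gap separates the selected windows from the next, so the group is the upper end of a continuous range.

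**Figure D1:**
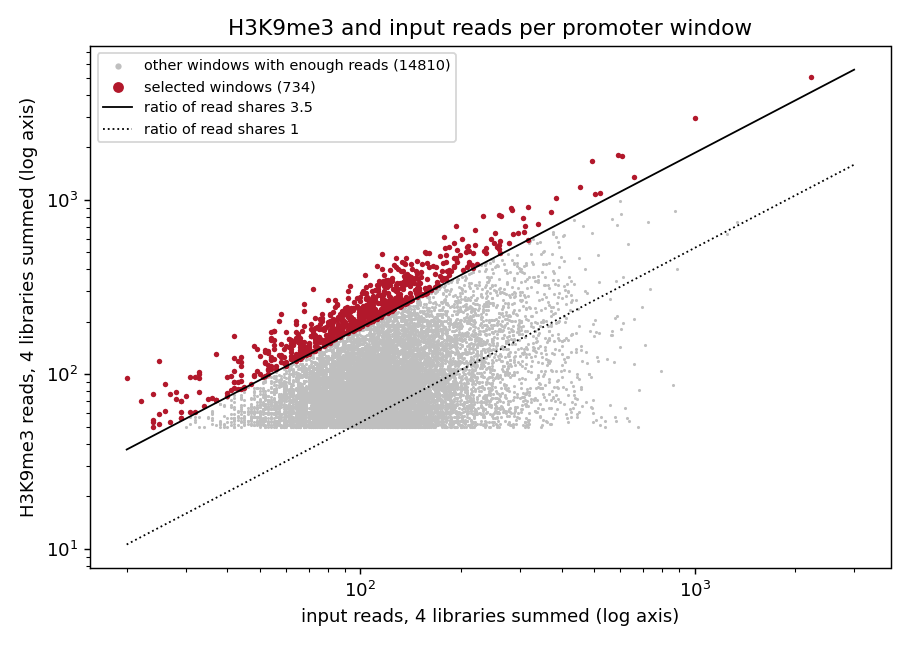
H3K9me3 reads against input reads for the 15544 windows with enough reads, each summed over 4 libraries, on log axes. The 734 selected windows (red) lie on or above the line of ratio 3.5 and border directly on the other windows (grey), and HFM1 is the point at the upper right with 5044 H3K9me3 reads.

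In each fraction and set, H3K9me3 was compared with the input of the same fraction and set, as log2 of the ratio of shares with 0.5 added to each count. The median selected window lay at 1.79 in non-migrated cells of set 1, 2.07 in migrated cells of set 1, 1.94 in non-migrated cells of set 2 and 2.24 in migrated cells of set 2. Of the 734 windows, 711 were above 0 in all 4 comparisons. All 734 were above 0 in both fractions of set 2, where they ranged from 0.89 to 3.89 and from 1.37 to 4.04. To look at libraries that played no part in a choice, windows were also selected on set 2 alone, with the same ratio and minimums, which gave 803 windows, 650 of them among the 734. In set 1 these 803 had a median log2 ratio of 1.71, against 0.56 over the 13479 windows with enough reads in set 2. Of the 803, 794 were above 0 in set 1, and 686 (85.4%) were above 1, against 29.1% of the 13479. Their pooled ratio of shares was 3.33 in set 1 and 4.37 in set 2.

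The window with the highest ratio was named for DPP6, which encodes a subunit of neuronal potassium channels. It held 4, 3, 54 and 58 H3K9me3 reads against 0, 2, 12 and 11 input reads (chr7:153757933-153760033), a ratio of 8.98, and lies on the strand opposite to DPP6. POTEH, a member of the primate-specific POTE ankyrin family, followed at 8.96 with 8, 3, 41 and 43 H3K9me3 reads against 1, 2, 13 and 4 input reads (chr22:16287837-16289937). Both have few input reads, and POTE genes are near-identical copies whose reads could be split between them.

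Better covered were AC104117.1 and RP11-281O15.3, transcripts with clone-based names, whose windows overlap on chromosome 5. AC104117.1 held 15, 17, 222 and 238 H3K9me3 reads against 6, 15, 41 and 54 input reads (chr5:178367984-178370084), a ratio of 8.0. RP11-281O15.3 reached 6.89 with 16, 11, 228 and 212 against 8, 13, 60 and 47. In AC011467.3 on chromosome 19, 26, 26, 316 and 338 H3K9me3 reads stood against 9, 32, 72 and 80 input reads, a ratio of 6.90. Each of these was higher in H3K9me3 than in input, as a share of the library, in all 4 comparisons.

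PDE10A, which encodes a phosphodiesterase that breaks down cyclic nucleotides and is best known from the striatum, had its window on the gene's own strand. It held 8, 7, 108 and 129 H3K9me3 reads against 2, 5, 35 and 26 input reads (chr6:166075488-166077588), a ratio of 6.99. The rest of the top 12 had clone-based or noncoding names: RP11-745L13.2 (ratio 8.07), RP11-160N1.10 (7.46), CTD-2281E23.1 (7.19), RP11-288G11.3 (7.04), RP11-513O17.3 (6.82) and LINC00413 (6.65). CTD-2281E23.1 went the other way in non-migrated cells of set 1, with 3 H3K9me3 against 10 input reads, while set 2 held 92 and 121 against 9 and 24.

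**Figure D2:**
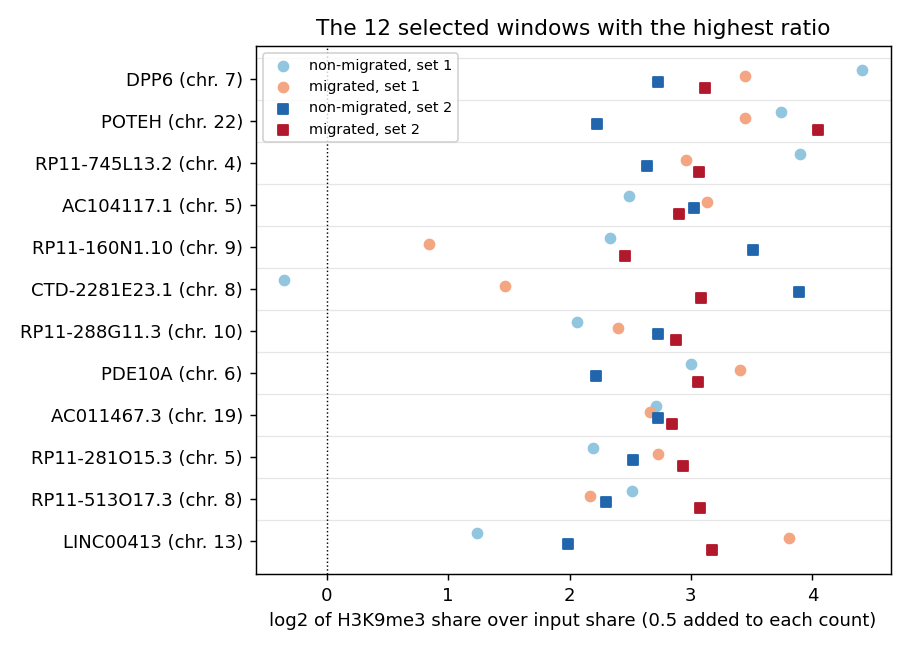
Log2 of the H3K9me3 share over the input share in each fraction (blue non-migrated, red migrated) and set (circles set 1, squares set 2) for the 12 windows of highest ratio. A single point lies below 0, CTD-2281E23.1 in non-migrated cells of set 1, and this window also has the widest spread.

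The selected windows with the most reads were HFM1, RP3-410C9.1, LINC00273, 5S_rRNA and ANKRD30BL, with 5044, 2947, 1811, 1779 and 1668 H3K9me3 reads. HFM1, a helicase of meiotic recombination, held 272, 148, 2173 and 2451 H3K9me3 reads against 177, 279, 915 and 856 input reads (chr1:91852849-91854949), so its input was also the highest of all selected windows. The other 2 windows named HFM1 both had a ratio below 1, with a median of 0.722. In all, 9 selected windows had more than 4 times the input of the median window with enough reads, as did 84 of the 15544, and these 9 held 9.08% of the H3K9me3 reads of the selected windows. Copy number and reads placed together from several copies were not tested.

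The names were sorted by 22 lists matched by symbol, and 228 selected windows fell into none. Long noncoding and antisense transcripts made up the largest number, 319 of 5188 windows with enough reads, or 6.15%, near the 4.72% over all. Small RNA genes (43 of 906, 4.75%), ion channels (10 of 193, 5.18%), solute carriers and related transporters (13 of 272, 4.78%) and neuronal adhesion genes (12 of 228, 5.26%) were also near it. Higher shares were held by imprinted genes (14 of 48, 29.2%), clustered protocadherins (8 of 42, 19%), homeobox and other developmental factors (29 of 161, 18.0%), C2H2 zinc finger genes with other symbols (11 of 66, 16.7%) and neurotransmitter receptors (12 of 113, 10.6%). Lower shares were held by keratin and cornified envelope genes (2 windows, 1.63%), cytochromes P450 and glucuronosyltransferases (1 of 48, 2.08%) and immune receptors (8 of 321, 2.49%). These shares come from the ratio that chose the windows and from windows that share genes and clusters, so they are a description without a test.

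**Figure D3:**
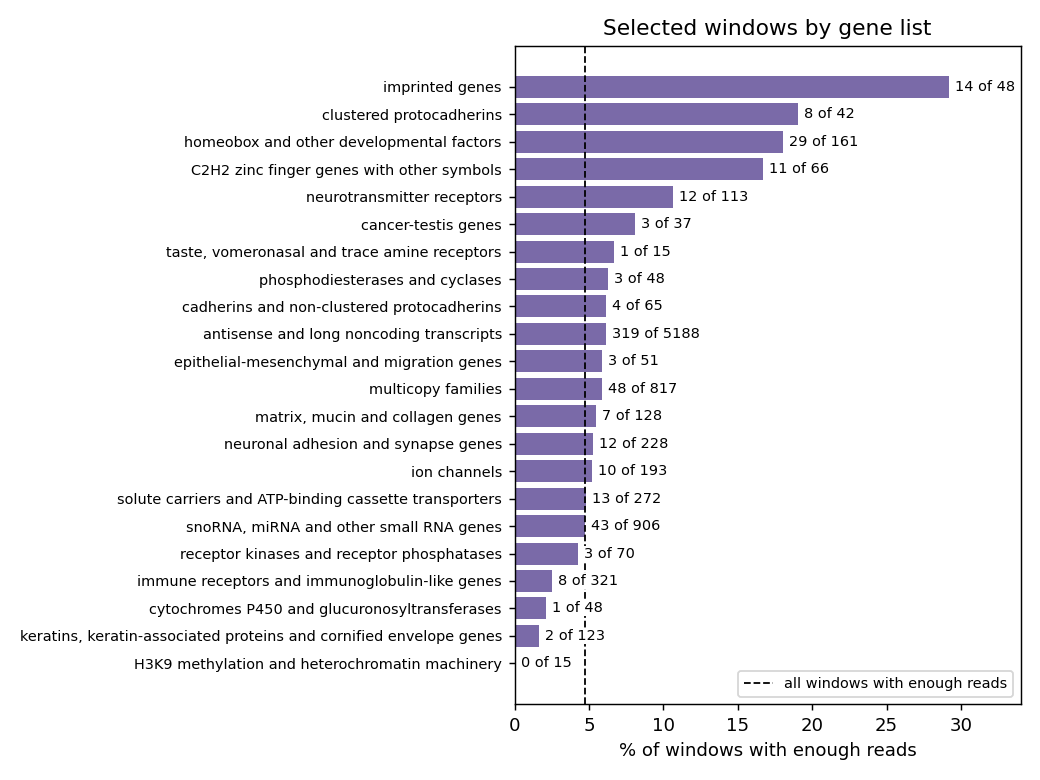
Selected windows as a percentage of the windows with enough reads in each of 22 gene lists, with the counts beside the bars and the share over all 15544 windows (4.72%) as a dashed line. Imprinted genes stand at 29.2%, and the heterochromatin machinery at 0 of 15.

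Imprinted genes came mainly from the Prader-Willi region of chromosome 15 and the PEG3 region of chromosome 19. MAGEL2 held 6, 8, 133 and 175 H3K9me3 reads against 3, 12, 48 and 30 input reads (chr15:23891075-23893175), a ratio of 6.53, and NDN, its neighbour that encodes necdin, reached 3.79. Of the 4 windows named for SNRPN, whose start lies at the imprinting centre, 3 were selected, at 4.55, 4.09 and 3.71, and SNURF, which shares its first exons, stood at 4.43. ATP10A, a lipid flippase gene, had windows on both strands at 5.53 and 5.22. On chromosome 19, USP29 held 16, 11, 211 and 160 H3K9me3 reads against 2, 11, 60 and 50 input reads (chr19:57629411-57631511), a ratio of 6.11, and ZIM2, a C2H2 zinc finger gene beside PEG3, reached 5.70. MEST, a hydrolase gene of chromosome 7, was selected at 5.29 by a window on the opposite strand. In the regions of chromosomes 15 and 19 several neighbouring genes were selected, while the lowest MEST window stood at 0.506.

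Homeobox and other developmental factors set up body regions and organs, and many are silent outside the tissues they pattern. The Iroquois genes of chromosome 5 led this list: all 3 windows of IRX4 were selected at 6.53, 6.00 and 3.51, and both windows of IRX1 at 5.84 and 5.81. The upper IRX4 window held 22, 25, 323 and 433 H3K9me3 reads against 15, 24, 94 and 99 input reads (chr5:1882080-1884180). For IRX1 on its own strand the counts were 20, 29, 368 and 393 against 14, 27, 119 and 103 (chr5:3594168-3596268). TBX18, a T-box factor of the heart and urinary tract, was selected at 5.74 with 8, 2, 65 and 71 H3K9me3 reads against 5, 12, 16 and 15 input reads. The other TBX18 window stood at 0.629. NKX1-1 (5.49), EBF3 (5.40), VSX1 (5.27), FOXA2 (5.22), TBX5 (4.74), GSC (4.66), SOX14 (4.65) and NKX2-2 (4.55) were among the other members. Of the list's 161 windows with enough reads, 36 had a ratio below 1, so the list was mixed. The list had 314 autosomal windows in all, and those short of the read minimums are not in this count.

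Among C2H2 zinc finger genes with other symbols, WT1, the Wilms tumour factor of kidney and gonad, had windows on both strands at 5.50 and 4.54. ZIC4, a factor of the cerebellum, held 15, 12, 229 and 278 H3K9me3 reads against 9, 26, 73 and 76 input reads at its higher window (chr3:147109209-147111309), a ratio of 5.48. SALL1 reached 5.11 and PRDM9, which places meiotic recombination, 4.75. These genes carry zinc fingers but were not left out by the name rule.

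Clustered protocadherins, adhesion proteins that label neurons by their combinations, contributed 8 windows between 3.52 and 4.58. All lie on the gene's strand within chr5:140163876-140864841, with SLC25A2, a mitochondrial transporter gene between the clusters, at 5.36. The highest, under PCDHGA1 (chr5:140798762-140800862), held 16, 11, 153 and 155 H3K9me3 reads against 11, 15, 57 and 55 input reads. Over all 52 windows of that stretch, whatever their H3K9me3 reads, the median ratio was 2.08 and 5 lay below 1, with PCDHGA1 windows as low as 0.177. Many protocadherin windows under the threshold were thus raised too, but not all.

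Neurotransmitter receptors were led by GALR1 with 9, 6, 76 and 111 H3K9me3 reads against 4, 9, 21 and 30 input reads (chr18:74960505-74962605), a ratio of 5.96. GRM6, a metabotropic glutamate receptor of the retina, followed with 2 windows at 5.70 and 4.95. HTR1B, GALR2, CHRM3, GRIN2B, GABRA4, GABRG3 and GABRR1 lay between 3.52 and 4.12. The highest members of the neuronal adhesion, matrix and ion channel lists, whose shares were near that over all windows, were NRG3 (5.57), MUC5B (6.12) and KCNIP4 (4.88).

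Of the genes tied to the epithelial-mesenchymal change, 3 of 51 windows with enough reads (5.88%) were selected, GSC at 4.66, CDH2 at 4.60 and MMP16 at 3.60. CDH2, which encodes N-cadherin, held 7, 11, 84 and 105 H3K9me3 reads against 11, 11, 34 and 29 input reads (chr18:25757310-25759410). Genes of H3K9 methylation and the heterochromatin machinery had 15 windows with enough reads and 0 selected, which at 4.72% over all is no result. Their 48 autosomal windows with at least 20 input reads had a median ratio of 0.62, against 0.798 over all unselected windows, and the highest was EHMT1 at 2.77.

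Some selected windows lay near each other. When selected windows within 500 kb were joined, 221 of the 734 fell into 51 groups of 3 or more, 69 groups had 2, and 375 windows stood alone. The same grouping was not made for other windows with enough reads, so these counts are a description only. The largest number, 9 selected windows, was reached by the protocadherin stretch of chromosome 5 and by chr19:57076890-58487904. Selected in the latter were AC005498.1 on both strands, ZIM2, USP29, the meiotic kinase gene AURKC, ZIK1, AC004017.1, AC010326.1 and C19orf18. That stretch also held 29 windows of the excluded zinc finger and receptor names with enough reads, 11 of them at the same ratio, and the median over its 48 windows was 2.93. C19orf18 held 33, 18, 162 and 190 H3K9me3 reads against 11, 14, 48 and 57 input reads (chr19:58485804-58487904), a ratio of 5.85. In chr19:12096432-12561849, 8 windows were selected, among them all 4 of CTD-2006C1.2 (3.69 to 4.44), with 6 of 12 excluded windows at the same ratio. In chr19:22782307-24186165, 7 were selected, from AC011467.3 to RPSAP58, with 7 of 8 excluded windows, and none of the 16 windows there was below 1.

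Of the 8 largest groups, the protocadherin group and a group on chromosome 21 held 0 windows of the excluded names with enough reads. In chr21:45845055-46240694, 4 windows under TSPEAR (3.77 to 5.95), with TRPM2, AP001065.3 and SUMO3, made up 7 selected of 26, and the median of all 26 was 1.81. In chr4:401598-1402119, 8 windows near the end of chromosome 4 were selected, under AC092574.1, PDE6B, PCGF3, AC092535.3, CTBP1, C4orf42 and NKX1-1, while 14 of the 37 windows there were below 1. In chr5:178309716-179291173, 7 were selected, among them GRM6, AC104117.1 and RP11-281O15.3, with 8 of 28 windows below 1. Each of these last stretches held 2 excluded windows with enough reads, and selected windows lay beside windows below 1.

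The group at chr19:53759545-54586634 held 8 selected windows and is built around a cluster of microRNA genes that is best known from the placenta. Selected were VN1R2, AC092070.1, MIR526B, MIR524, MIR516A1, a U6 copy, MIR371 and TARM1. MIR524 held 46, 14, 282 and 238 H3K9me3 reads against 28, 40, 98 and 95 input reads (chr19:54212256-54216701), a ratio of 4.19. MIR516A1 stood at 3.84, MIR371 at 3.72 and MIR526B at 3.58. All 19 microRNA windows of the group lay at or above 1.598, 18 of them at or above 2, with a median of 3.25, so the cluster was raised as a stretch and the threshold cut through it. On chromosome 14, MIR154 (3.94) and MIR337 (3.51) were selected with RTL1 (4.28), a retrotransposon-derived imprinted gene whose window lies on the other strand.

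The mature products of MIR337, MIR154, MIR526B, MIR524 and MIR516A1 follow, as listed for GRCh38.p14 in RefSeq, with the seed (bases 2 to 8), which pairs with target transcripts, in capitals. They are shown to tell which microRNAs the named windows belong to.
hsa-miR-337-5p: gAACGGCUucauacaggaguu
hsa-miR-337-3p: cUCCUAUAugaugccuuucuuc
hsa-miR-154-5p: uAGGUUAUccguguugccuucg
hsa-miR-154-3p: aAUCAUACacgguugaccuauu
hsa-miR-526b-5p: cUCUUGAGggaagcacuuucugu
hsa-miR-526b-3p: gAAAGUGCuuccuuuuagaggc
hsa-miR-524-5p: cUACAAAGggaagcacuuucuc
hsa-miR-524-3p: gAAGGCGCuucccuuuggagu
hsa-miR-516a-5p: uUCUCGAGgaaagaagcacuuuc
hsa-miR-516a-3p: uGCUUCCUuucagagggu

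The 10 mature sequences have 10 different seeds, so no seed is shared among them. MIR720 (4.71) and the 2 windows of MIR4500HG (4.59 and 3.74) were the other selected windows with a microRNA name. In all these were 9 of 84 with enough reads, against 734 of 15544 (4.72%) over all names. All of the 9 but MIR720 lie in the chromosome 19 group, in the chromosome 14 stretch or under MIR4500HG. They are thus not separate cases, and the count is no result about microRNA genes.

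Selected windows were placed unevenly. As a share of windows with enough reads, chromosomes 4 (9.86%), 13 (8.66%), 19 (7.52%) and 18 (7.50%) held the most and chromosomes 17 (2.52%) and 16 (2.88%) the least. Their median input was 67, 70, 142, 88, 121 and 189 reads in that order. At low input a window needs a higher ratio to reach the H3K9me3 minimum, so these shares depend on input too. Of all windows, 49 of 1713 were selected on chromosome 4 and 24 of 820 on chromosome 13. The counts were 64 of 1995 on chromosome 5, 18 of 530 on chromosome 21 and 14 of 1679 on chromosome 17. How far the order follows input was not tested. A selected window had a median of 11 other windows within 500 kb, against 16 for windows with enough reads and 18 for all autosomal windows. Of the selected windows, 20.8% lay within 5 Mb of the outermost window of a chromosome, against 15.1% and 12.9%. On chromosome 19, 38 of 51 selected windows (74.5%) lay within 100 kb of a zinc finger window, against 22% of its windows with enough reads. Elsewhere the shares were 4.10% and 2.46%. Selected windows thus had fewer neighbours than other windows over all chromosomes together, and on chromosome 19 most lay near zinc finger genes.

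Windows around the selected ones were read from the same libraries, and the ratio rule had been applied to them too. Those with enough reads and a name that was not left out stayed unselected only because they fell short of that ratio. Their ratios are thus cut off by the rule, so the values below are a description and not an independent readout. The 1546 unselected windows within 100 kb that share no base with a selected window had a median ratio of 1.29, and 28.1% reached 2. Over all 34683 unselected autosomal windows with at least 20 input reads, the median was 0.798 and 11.1% reached 2. By distance the median fell from 1.78 within 10 kb to 1.39 at 10 to 50 kb, 1.07 at 50 to 100 kb and 0.881 at 100 to 500 kb. Yet 38.9% of the windows within 100 kb had a ratio below 1. Without the excluded families the median within 100 kb was 1.22.

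**Figure D4:**
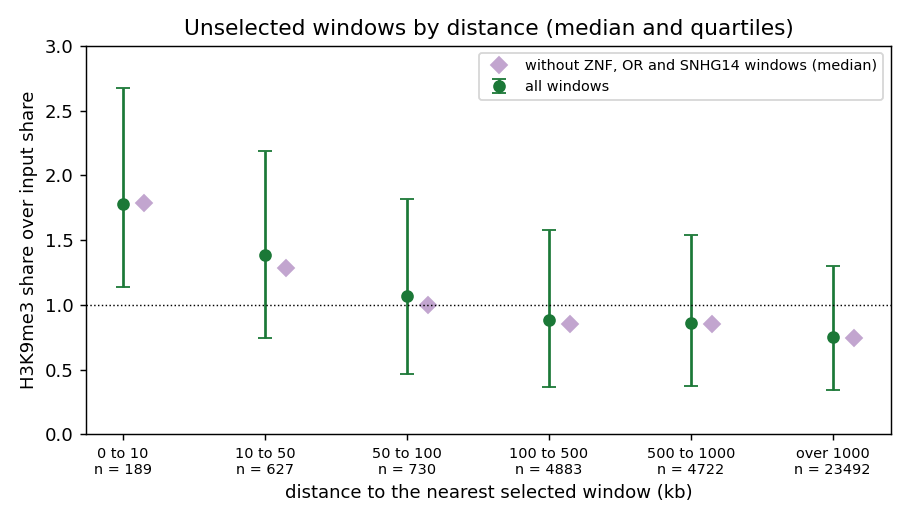
H3K9me3 share over input share of unselected windows by distance to the nearest selected window, as median and quartiles (green), and the median without the excluded families (diamonds). The median is highest within 10 kb (1.78) and lies below 1 from 100 kb on.

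Unselected windows of the same name are described next, though windows of a name need not all be starts of that gene. For 226 names with a selected window, other windows were counted that overlap no selected window and hold at least 20 input reads. These 564 windows had a median ratio of 1.63, with 202 at or above 2 and 140 below 1. The name PARP1 alone supplied 43 of the 564 and 36 of those below 1. Of 285 names with 2 or more windows and a selected one, 36 had all of them selected, IRX4, IRX1 and CTD-2006C1.2 among them. PCDHGA1 had 4 of 19 and TSPEAR 4 of 18. Of the 275 selected windows whose gene has a RefSeq promoter on the same chromosome, 212 lay on the gene's strand and 63 on the other, by the strand in GRCh38, which can differ from that in hg19 where a stretch was turned round between the builds.

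The comparison the study was designed for is between migrated and non-migrated cells. It asks whether H3K9me3, corrected for input, differs between cells that had crossed the membrane and cells that had not. The choice of windows used sums over both fractions and not this difference. No selected window passed: with limma on log2 reads with voom weights and Benjamini-Hochberg adjustment over 36440 windows, 0 of 734 were higher and 0 lower at an adjusted p under 0.05, and the smallest adjusted p among them was 0.999. Over all windows the count was also 0 in each direction (0% and 0%). At an unadjusted p under 0.05, 59 of the 734 (8.04%) were higher in migrated cells and 0 lower, against 1.47% higher and 1.89% lower over all windows. That count moved with the setting. Limma without the precision weights gave 37 selected windows higher and 2 lower (1.12% and 1.72% of all windows). Without the set as a block it gave 2 higher and 0 lower (0.299% and 0.689% of all). With the deposited constants it gave 0 higher and 10 lower (0.022% and 9.17% of all).

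Set 2 carries most reads, and leaving out 1 of its H3K9me3 libraries leaves that group with a single library, which is then assumed to vary like the other groups. Without the non-migrated one, 36 selected windows were higher and 41 lower at an unadjusted p under 0.05 (7.58% and 11% of all windows). After limma's adjustment 4 were higher and 7 lower (1.63% and 2.59% of all). Without the migrated one, 37 were higher and 41 lower (7.84% and 11.4% of all), and after adjustment 4 higher and 8 lower (2.01% and 3.26% of all). In these fits of 730 selected windows their shares of calls were no longer tilted towards migrated cells.

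The fitted log2 changes of the selected windows had a median of 0.40, or 1.32-fold, against -0.02 over all windows, and ran from -1.13 to 1.76. They were above 0 in 585 of 734 (79.7%), against 48.5% of all. The median SE of a selected window was 0.48, larger than the median change. Within set 1, where counts are low, the median was 0.07 against -0.12 over all windows, and 53.1% were above 0. Within set 2 it was 0.44 against -0.02, with 83.2% above 0. In both sets 336 windows were above 0 and 69 below. Without either H3K9me3 library of set 2 the median was 0.10 (non-migrated left out) or 0.11 (migrated left out), so its size rests on that set. When the constants in the deposited values replaced the library scaling, the median became -0.53, while its distance from the median of all windows stayed at 0.41, so the direction holds only relative to the other windows.

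**Figure D5:**
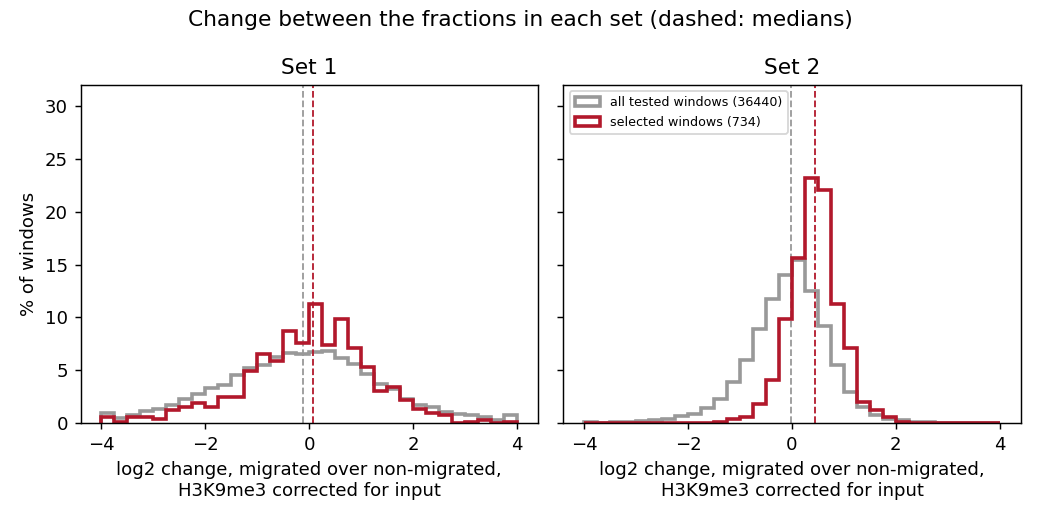
Input-corrected log2 change of migrated over non-migrated cells for all 36440 tested windows (grey) and the 734 selected windows (red), as percent of windows, in each set, with medians as dashed lines and values beyond the axis counted in the end bins. In set 2 the selected windows centre on 0.44 and all windows on -0.02, while in set 1 the distributions are wide and the medians are 0.07 and -0.12.

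Reads were also pooled over the selected windows, which removes the scatter of low counts in single windows. In set 1 they held 5.60% of the H3K9me3 reads of non-migrated cells (95% Wilson interval 5.49 to 5.72) and 6.96% of those of migrated cells (6.80 to 7.13), with 1.61% and 1.66% of the input reads. In set 2 the shares were 7.76% (7.71 to 7.81) and 9.57% (9.52 to 9.63) for H3K9me3 and 1.98% and 1.97% for input. Corrected for input this is a log2 difference of 0.27 (0.21 to 0.34), or 1.21-fold, in set 1 and of 0.31 (0.29 to 0.34), or 1.24-fold, in set 2. The intervals cover counting error only, there is 1 library of each kind per fraction within a set, and no test was made. The 148 excluded windows at the same ratio gave 0.20 and 0.29, and the 14810 windows with enough reads below the ratio gave -0.003 and -0.002. Higher pooled shares in migrated cells were thus seen in both sets, in the selected windows and in the excluded windows at the same ratio. Windows without enough reads were not pooled. With 1 H3K9me3 library per fraction in a set, a more efficient antibody step in that library cannot be told apart from more mark.

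The selected windows of smallest p with the same sign in both sets are named although none passed adjustment. BARHL1, a homeobox gene of the developing nervous system that the list of developmental factors did not catch, held 11, 16, 117 and 183 H3K9me3 reads against 16, 12, 66 and 55 input reads (chr9:135455572-135457672). Its fitted log2 change was 1.43 ± 0.41 (SE, n = 2 libraries per group; limma adjusted p = 0.999), with 2.44 in set 1 and 1.20 in set 2. LINC00273 held 112, 108, 753 and 838 H3K9me3 reads against 61, 97, 236 and 196 input reads (chr16:33962403-33964503), a change of 0.72 ± 0.21. RP11-740P5.2 (1.26 ± 0.39), C5orf17 (1.17 ± 0.38) and RP11-717H13.1 (1.44 ± 0.51) followed. The same sign in both sets was a condition for naming these windows, and LINC00273 is among the 9 windows of high input.

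In the other direction the smallest p belonged to RP11-311B18.1, with a change of -0.88 ± 0.54, followed by RP11-680H20.2 (-1.13 ± 0.75), SEMA6D (-0.70 ± 0.47), RP11-716O23.1 (-0.77 ± 0.54) and RP11-119D9.1 (-1.0 ± 0.71). SEMA6D, an axon guidance gene, held 18, 10, 95 and 76 H3K9me3 reads against 6, 19, 29 and 45 input reads (chr15:47474298-47476398). Each of these 5 changes is less than 2 SE from 0.

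Among the 59 windows with an unadjusted p under 0.05, the changes ran from 0.41 to 1.76 with a median of 1.09, and 50 were above 0 in both sets. Against 8.04% of all selected windows and 1.47% of all tested ones, they were 28 of 319 long noncoding transcripts, 3 of 29 developmental factors, 3 of 48 multicopy families, 2 of 14 imprinted genes, 2 of 10 ion channels and 2 of 3 epithelial-mesenchymal genes. Clustered protocadherins had 0 of 8 and neurotransmitter receptors 0 of 12. Most of these counts are too small to set apart from the share over all selected windows. The median change was 0.44 in imprinted genes, with 13 of 14 above 0, 0.50 in developmental factors, with 26 of 29 above 0, 0.25 in clustered protocadherins, with 7 of 8, and 0.15 in neurotransmitter receptors, with 6 of 12. Among imprinted genes MAGEL2 stood at 1.08 ± 0.48 and USP29 at -0.04 ± 0.43. GSC stood at 1.11 ± 0.45 and CDH2 at 1.08 ± 0.50, all with adjusted p of 0.999 by limma. These values describe the lists and were not tested against the other windows.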

How the data were processed

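ChIP-seq of H3K9me3 (with an abcam antibody, per the labels) and input was made from migrated and non-migrated SiHa cells in 2 paired sets. The authors deposited 1 log2 value per promoter window and library. Bowtie2 2.2.9, SAMtools 1.3, FastQC 0.11.5 and the build hg19 are listed in the submitters' processing notes. Which program did the window counting was not given in the sources used here. Per the labels' protocols, duplicate reads of set 1 were removed and set 2 is a second biological replicate made with another kit. The title and description of the migrated H3K9me3 library of set 1 disagree on its replicate number, and the former was used.

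The deposited log2 values equalled log2 of whole reads with an added constant that differs between libraries. Empty windows had been given log2 of 0.9, and 100% were whole within 0.01 once the constant was removed. These recovered reads were used, and 0 other columns of sample values were left aside. The planned quasi-likelihood test of counts was not used on log2 values. In its place limma 3.58.1 (R 4.3.3) was fitted on log2 of reads plus 0.5 per library size, scaled by trimmed means of M values (30% of ratios and 5% of levels trimmed), with voom weights. Windows needed 10 reads per library of median size in 2 libraries and 15 reads in all, which kept 36440. The model held set, ChIP, their product, fraction and fraction by ChIP, the tested term, with 2 residual and 22.0 prior degrees of freedom. The set entered as a block, since the series' text calls the sets paired. Across windows, which are not independent, same-set deviations from group means had r = 0.147 (H3K9me3) and 0.469 (input). The fit was checked on simulated data. Shares and ratios were computed in Python 3.11.15 with pandas 2.3.3, and Wilson intervals with statsmodels 0.14.6.

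The 734 windows and the 22 lists were chosen with earlier results of these data known. Named windows were the 12 highest ratios, the 5 with the most H3K9me3 reads, 3 on either side of the threshold, the 8 largest groups, up to 4 per list by ratio, and the 5 of smallest p per direction with the same sign in both sets. Further names within lists and groups were added after their values were seen. Some windows that this rule names are not reported here. Of the selected windows, 396 matched a RefSeq symbol or a unique synonym. RefSeq sequences are from GRCh38.p14, and no coordinates were converted. Alternatives covered scaling, weights, filters, the block, single libraries and the selection rule.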

Additional observations from a re-analysis of the deposited data

How the results depend on the processing

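Within the selection rule, a ratio of 3 gave 1269 windows and a ratio of 4 gave 420, while higher read minimums (678), set 2 alone (803), equal weight for both sets (669, of which 518 are among the 734) and merged overlaps (700) stayed within 1.5 times of 734. The median ratio of neighbours was 1.5 within 50 kb and 0.931 within 1 Mb. The median change between the fractions turned to -0.53 with the deposited constants in place of the scaling, since these shift all windows. Over the 15 settings of that fit, the distance of the selected windows from all windows stayed between 0.19 and 0.44. Without the replicate block the median was 0.36 with 0 calls, and the block changed no call. Leaving out each library in turn gave medians of 0.10 to 0.44, 0 to 4 selected windows higher and 0 to 8 lower, and 0 to 723 windows of all higher and 0 to 1171 lower. Calls over all windows appeared when any H3K9me3 library was left out, with 5 higher and 35 lower without the non-migrated and 16 higher and 104 lower without the migrated library of set 1. The lone library is then assumed to vary like the other groups, and the cause was not tested. Pooled share differences stayed between 0.25 and 0.28 in set 1 and between 0.30 and 0.32 in set 2 under 4 alternatives each. The setting without the 9 windows of high input was added after the data were seen. With 2 libraries per group and few reads per window in set 1, changes of a single window near its SE were not detectable.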
